A study of Mus musculus with 12 samples.

Results

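Immediate early genes are transcribed within minutes of a growth factor, cytokine or stress signal, from transcription factors already present in the cell, and their mRNAs are short-lived. MAP kinases phosphorylate serum response factor partners and CREB family proteins at these promoters, and the products include the Fos and Jun proteins, which pair to form AP-1, and the EGR zinc finger factors. In dissected tissue these genes also respond to ischaemia and handling. The genes described here are 10 of this class in the 35999 gene names of the deposited table. They were chosen by name as Fos, Fosb, Jun, Junb, Jund, Egr1, Egr3, Atf3, Ier2 and Dusp1, and all 10 had enough counts to be among the 17940 genes tested.

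The tumours were subcutaneous growths of the mouse mesothelioma cell line AB1-HA in male BALB/c mice of 8 to 10 weeks. The anti-CD4 group (6 tumours) came from mice given 100 µg of an anti-CD4 antibody on days -3, 0 and 7 around inoculation, and the PBS group (6 tumours) from mice given PBS on the same days. All tumours were taken on day 9, total RNA went through a depletion step that the labels describe as covering globin RNA, and each tumour gave 1 estimated count per gene. The comparison asked how tumours in mice without CD4 T cells differ from tumours in mice that have them. A bulk tumour mixes cancer and host cells, so fewer cells of a type and less RNA per cell cannot be told apart.

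Total counts ran from 34.45 to 62.06 M in anti-CD4 tumours and from 30.75 to 41.93 M in PBS tumours, and anti-CD4 6 was the deepest library. Mitochondrially encoded transcripts took 1.71% to 2.01% of the counts in anti-CD4 tumours and 1.28% to 2.68% in PBS tumours. Cd4, the check of the treatment labels, had 1.31 ± 0.50 CPM in anti-CD4 tumours and 6.31 ± 2.34 CPM in PBS tumours (SD, n = 6 each; CPM, the share of the library's counts on the usual scale, adjusted by TMM). Of 7 mesothelial and mesothelioma markers, Msln and Pdpn were present in every tumour, whereas Upk3b and Krt18 had no count in at least 1 tumour. Estimated counts of the 10 genes ran from 63 (Atf3 in anti-CD4 5) to 13460 (Egr1 in anti-CD4 6).

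The promoters of Fos, Fosb, Dusp1 and Junb are shown for how their levels correlated across tumours. Fos and Fosb passed the test of correlation with each other. Dusp1 passed it with Fosb and Egr3 but not with Fos (permutation, adjusted p = 0.051), and Junb passed it with Ier2 alone. RefSeq promoter windows reaching past the start on both sides (build GRCm38.p6) were matched for 7 of the 10 genes, that is all but Egr1, Egr3 and Ier2. Each line gives the 200 bases before the RefSeq start, with the letters TGACG, or CGTCA where the motif lies on the other strand, in capitals. A match that overlaps an earlier one is left in small letters. TGACG is the core of the site bound by CREB and ATF proteins.
Fos, GRCm38.p6 chr12:85473690-85473889, plus strand: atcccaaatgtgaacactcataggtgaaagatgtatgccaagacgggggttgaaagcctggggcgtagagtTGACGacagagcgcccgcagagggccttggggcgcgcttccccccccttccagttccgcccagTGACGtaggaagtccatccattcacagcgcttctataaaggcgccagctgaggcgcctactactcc
Fosb, GRCm38.p6 chr7:19310046-19310245, minus strand: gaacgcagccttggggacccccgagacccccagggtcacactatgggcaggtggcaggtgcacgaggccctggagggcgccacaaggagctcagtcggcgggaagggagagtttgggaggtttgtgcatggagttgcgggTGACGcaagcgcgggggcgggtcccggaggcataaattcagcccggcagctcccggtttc
Dusp1, GRCm38.p6 chr17:26508473-26508672, minus strand: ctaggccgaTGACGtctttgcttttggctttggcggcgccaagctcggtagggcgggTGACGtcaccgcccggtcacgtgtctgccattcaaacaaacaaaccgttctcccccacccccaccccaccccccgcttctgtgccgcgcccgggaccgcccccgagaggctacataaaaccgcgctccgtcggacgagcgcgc
Junb, GRCm38.p6 chr8:84978749-84978948, minus strand: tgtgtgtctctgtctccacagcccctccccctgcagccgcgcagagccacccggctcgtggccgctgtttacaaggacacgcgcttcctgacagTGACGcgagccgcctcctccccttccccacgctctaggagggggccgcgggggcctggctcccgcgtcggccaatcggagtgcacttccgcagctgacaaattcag
TGACG on either strand was found in 5 of the 7 windows (Fos, Fosb, Junb, Dusp1 and Atf3) and in 20.8% of the 32851 promoter windows in the table. In Fos it began at -129 and -66 from the start, in Fosb at -60, in Dusp1 at -191 and -143, and in Junb at -106. The full palindrome TGACGTCA, which contains TGACG and reads the same on both strands, was found in the Dusp1 window and in 1.79% of all windows. Its CGTCA overlaps the TGACG at -143 and is not among the positions given for Dusp1. The EGR motif GCGGGGGCG, searched on both strands, was found in the Fosb window and in 2.91% of all windows. TATAAA on either strand was found in the Fos window and, after the RefSeq start and so outside the bases printed, in the Junb window, and in 13.6% of all windows. TGANTCA, the AP-1 site (7.81% of all windows), and the CArG box of serum response factor (1.63%) were found in none of the 7. The search covered exact matches inside these windows only. Sites farther upstream, or sites of another form, were not looked for, so these genes may still have such sites. The RefSeq start of Jund lies 1210 bases upstream of the outermost GENCODE start, and for Atf3 and Dusp1 the outermost GENCODE start lies upstream of the RefSeq start, so these windows cover 1 of several annotated starts.

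None of the 10 genes passed the edgeR quasi-likelihood test of anti-CD4 against PBS tumours with Benjamini-Hochberg adjustment over all genes. In that test 5.28% of the 17940 genes were called at an adjusted p under 0.05 (2.95% higher and 2.33% lower). 8 of the 10 log2 fold changes were positive, against 49.9% of those of all genes, and their median was 0.24, against -0.00033 for all genes. 4 of the 10 had an unadjusted p under 0.05 (Jun, Egr1, Egr3 and Dusp1, all higher), against 28% of all genes in either direction and 13.4% higher. DESeq2 called 1 of the 10 (Dusp1) and 14.1% of all genes, and limma voom with sample weights called 3 of the 10 (Jun, Egr1 and Dusp1) and 33.7% of all genes. Those 3 genes were higher in anti-CD4 tumours. Counting only genes called higher, DESeq2 called 1345 of all 17969 tested and limma voom 2848 of 17940. In every one of the 10, the levels of the groups overlapped; 3.12% of all genes had groups that did not overlap.

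**Figure D1:**
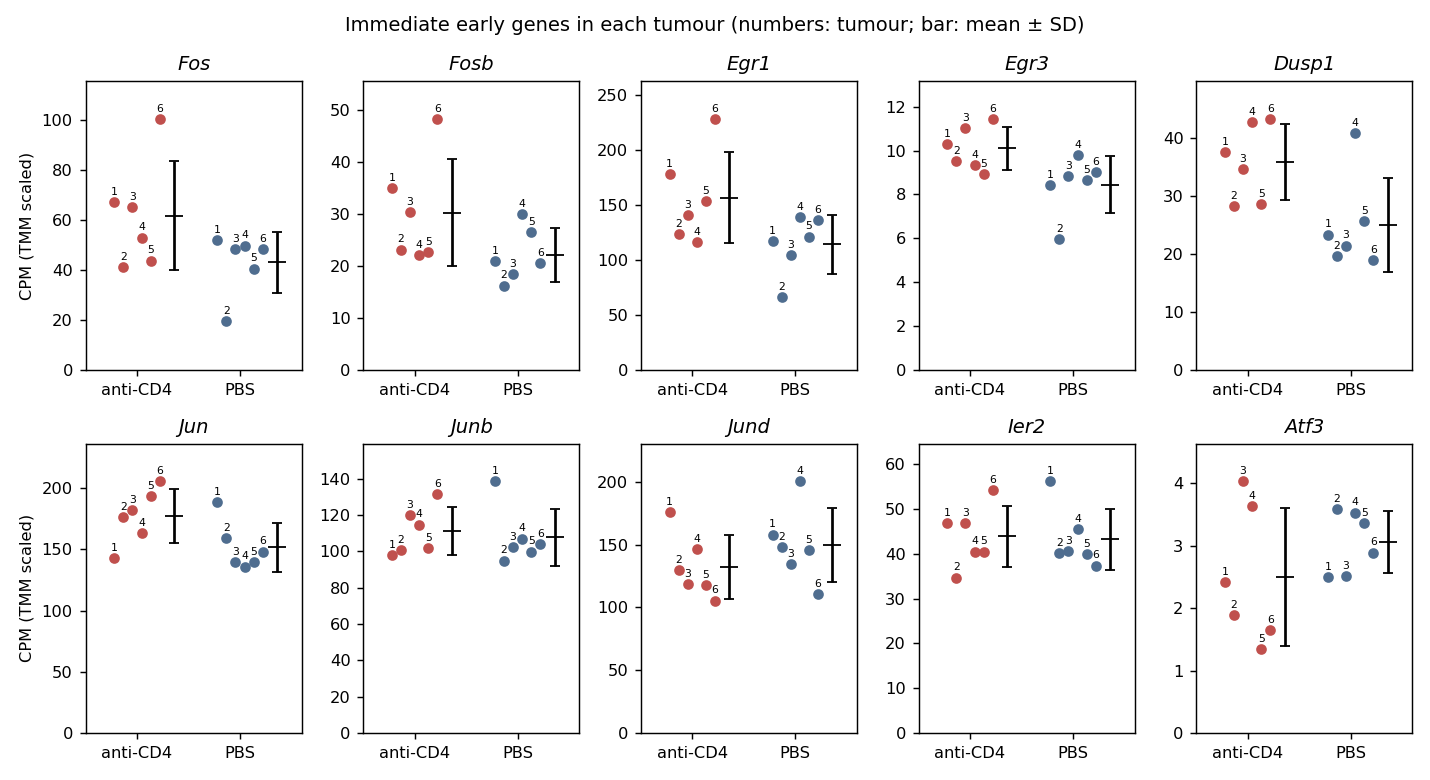
Level of each gene in each tumour, in CPM scaled by TMM, with anti-CD4 tumours left of PBS tumours; the numbers are the tumours and the bar is the mean ± SD (n = 6 each). Anti-CD4 6 was the highest tumour in Fos, at 100.6 CPM, and PBS 2 the lowest, at 19.5 CPM, and in all 10 panels the groups overlap.

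Among the Fos genes, whose products dimerise with Jun proteins, Fos had 41.3, 59.1 and 100.6 CPM as the lowest, median and highest value in anti-CD4 tumours, against 19.5, 48.3 and 52.2 CPM in PBS tumours. 4 anti-CD4 tumours lay above every PBS tumour and 2 PBS tumours lay below every anti-CD4 tumour. The log2 fold change of Fos was 0.52 (SE 0.26, edgeR adjusted p = 0.219), a fold of 1.43 with a 95% interval from 0.96 to 2.14. Fosb, a close relative of Fos, had 22.1, 26.8 and 48.4 CPM in anti-CD4 tumours as the lowest, median and highest value, against 16.3, 20.8 and 30.1 CPM in PBS tumours. Only anti-CD4 1, 3 and 6 were above the highest PBS tumour, PBS 4. The Fosb log2 fold change was 0.45 (SE 0.21, edgeR adjusted p = 0.188). Without anti-CD4 6, the log2 fold changes were 0.33 for Fos and 0.27 for Fosb.

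The EGR genes encode zinc finger transcription factors induced through serum response factor. Egr1 had 116, 147 and 229 CPM in anti-CD4 tumours as the lowest, median and highest value, against 66.8, 119 and 139 CPM in PBS tumours. As with Fos, anti-CD4 6 was the highest tumour and PBS 2 the lowest. For Egr1 the log2 fold change came to 0.46 (SE 0.20, edgeR adjusted p = 0.159). Egr3 had 8.94, 9.91 and 11.4 CPM in anti-CD4 tumours as the lowest, median and highest value, against 5.98, 8.75 and 9.78 CPM in PBS tumours. 4 PBS tumours lay below every anti-CD4 tumour. The log2 fold change of Egr3 was 0.26 (SE 0.11, edgeR adjusted p = 0.159), with a 95% interval from 0.01 to 0.50. Exact two-sided permutation over all assignments of the tumours gave p = 0.0216 for Egr3 and p = 0.0498 for Egr1, unadjusted, where the smallest possible value is 0.00216. The same exact test gave p = 0.0671 for Jun, 0.0887 for Fosb, 0.0996 for Fos, 0.184 for Atf3, 0.297 for Jund, 0.647 for Junb and 0.855 for Ier2.

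Dusp1 encodes a nuclear phosphatase that dephosphorylates MAP kinases and so limits the signal that induces these genes. It had 28.3, 36.2 and 43.4 CPM in anti-CD4 tumours as the lowest, median and highest value, against 19.0, 22.5 and 41.0 CPM in PBS tumours. PBS 4 was the high one, and the other 5 PBS tumours, at up to 25.8 CPM, lay below every anti-CD4 tumour. The log2 fold change of Dusp1 was 0.52 (SE 0.19, edgeR adjusted p = 0.103), a fold of 1.44 with a 95% interval from 1.08 to 1.90, and the exact permutation p was 0.0216, unadjusted. Without PBS 4 the log2 fold change was 0.72 and passed the test (edgeR adjusted p = 0.0164, with 4.26% of all genes called). PBS 4 is the PBS tumour highest in Dusp1, so leaving it out raises the value. Over all 26 alternatives the adjusted p ran from 0.0164 to 0.704.

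Markers of other tissue moved with part of the Dusp1 values. The 7 skeletal muscle markers summed to 893 to 4411 CPM in anti-CD4 tumours and to 829 to 5517 CPM in PBS tumours, with none at 0 in any tumour. The muscle sum was 3323 CPM in PBS 4 and 4096 and 4411 CPM in anti-CD4 1 and 4, which had high Dusp1. It was highest in PBS 5, with 25.8 CPM of Dusp1, and was 1278 CPM in anti-CD4 6, the tumour with the most Dusp1. With the muscle level as a covariate, the Dusp1 log2 fold change was 0.51 (edgeR adjusted p = 0.0571). The 7 fibroblast markers all had positive log2 fold changes, against 49.9% of all genes, and 2 of them rose, against 2.95% of all genes. They summed to 26632 to 34132 CPM in anti-CD4 tumours and to 14680 to 26880 CPM in PBS tumours, with none at 0. With the fibroblast level as a covariate, the Dusp1 log2 fold change was 0.18 (edgeR adjusted p = 0.704) while that of Fos was 0.54, that of Egr1 0.54 and that of Jund -0.50 (edgeR adjusted p = 0.283, unadjusted p = 0.00168); the fibroblast level itself differed between the groups, so its part and that of treatment cannot be told apart.

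The Jun genes encode the partners of the Fos proteins, and Jun can also pair with itself. Jun had 143, 179 and 206 CPM in anti-CD4 tumours as the lowest, median and highest value, against 136, 144 and 189 CPM in PBS tumours. PBS 1 was the highest PBS tumour and anti-CD4 1 the lowest anti-CD4 tumour. For Jun the log2 fold change came to 0.22 (SE 0.09, edgeR adjusted p = 0.139). Without PBS 1 the log2 fold change was 0.30 and passed the test (edgeR adjusted p = 0.0382, with 14.6% of all genes called). PBS 1 is the PBS tumour highest in Jun, so leaving it out raises the value. With library size in the fit the log2 fold change was 0.052 (edgeR adjusted p = 0.845), and only 5 of all genes were called. Library totals reached higher in anti-CD4 tumours, so their part and that of treatment cannot be told apart in that fit. With counts thinned to the lowest library total, the log2 fold change of Jun was 0.22 (edgeR adjusted p = 0.166). Over all 26 alternatives the adjusted p ran from 0.00609 to 0.845. Jun overlaps the antisense gene Junos, which is not among the deposited gene names, over 689 of its 3189 bases. No label states a strand setting, so reads of the pair cannot be told apart within that overlap. The estimated counts of Jun were whole in every tumour.

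Junb, a Jun protein with weaker activating function, had 98.0, 108 and 132 CPM in anti-CD4 tumours as the lowest, median and highest value, against 94.9, 103 and 138 CPM in PBS tumours. PBS 1 was the highest of all 12 tumours. For Junb the log2 fold change came to 0.04 (SE 0.09, edgeR adjusted p = 0.782), with a 95% interval from -0.16 to 0.25. Ier2, a short nuclear protein of the serum response, had 34.7, 43.6 and 54.2 CPM in anti-CD4 tumours, against 37.3, 40.3 and 56.2 CPM in PBS tumours. Both ranges nearly coincide, and its log2 fold change was 0.02 (SE 0.11, edgeR adjusted p = 0.918), with a 95% interval from -0.22 to 0.26. The direction of both genes turned with a single tumour, and that of Ier2 also with scaling: without anti-CD4 6 the log2 fold change was -0.0094 for Junb and -0.048 for Ier2, and with upper quartile scaling that of Ier2 was -0.02.

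Jund, the Jun family member expressed in resting cells, had 106, 124 and 176 CPM in anti-CD4 tumours as the lowest, median and highest value, against 111, 147 and 200 CPM in PBS tumours. Anti-CD4 1 and 4 and PBS 1 and 4 were the higher tumours in their groups. For Jund the log2 fold change came to -0.18 (SE 0.14, edgeR adjusted p = 0.430). It was -0.27 without anti-CD4 1 and -0.075 without PBS 4. Of its 12 estimated counts, which ran from 4335.5 to 7376.5, 7 end in 0.5 of a read. Those of Fos, Fosb, Jun, Egr1, Egr3, Atf3, Ier2 and Dusp1 are whole in every tumour. Jund has 1 exon on chromosome 8 from 70698949 to 70700616 (GRCm38), and the antisense gene Gm11175 lies inside it over 919 bases. As no strand setting is stated, reads of that pair cannot be told apart within the overlap. The count of Junb was whole in 0 of the 12 tumours, and Junb overlaps Prdx2, on the opposite strand, over 351 bases.

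Atf3, a stress-induced member of the ATF family that binds CREB and AP-1 sites, was the lowest of the 10 genes. It had 1.34, 2.15 and 4.03 CPM in anti-CD4 tumours as the lowest, median and highest value, against 2.50, 3.13 and 3.58 CPM in PBS tumours. Anti-CD4 3 and 4, at 4.03 and 3.64 CPM, were above every PBS tumour, and the other 4 anti-CD4 tumours, at 1.34 to 2.42 CPM, were below every PBS tumour. The log2 fold change of Atf3 was -0.30 (SE 0.25, edgeR adjusted p = 0.449). Without anti-CD4 3 and 4 together it was -0.75 and passed the test (edgeR adjusted p = 0.0469; 5.94% of all genes called); these are the 2 anti-CD4 tumours highest in Atf3, so leaving them out lowers the value. With 1 tumour left out it was -0.49 (anti-CD4 3), -0.17 (anti-CD4 5) or -0.20 (anti-CD4 6), and did not pass in these 3 fits. Anti-CD4 3 and 4 also had the highest sums of the 7 T cell markers in their group, at 21.8 and 31.2 CPM, against 6.83 to 13.6 CPM in the other anti-CD4 tumours and 25.5 to 53.3 CPM in PBS tumours. The 4 tested neutrophil markers also summed highest in these 2 tumours within their group, at 29.6 and 25.2 CPM, against 9.04 to 14.3 CPM in the other anti-CD4 tumours. In the PBS group, the highest T cell sum was in PBS 6 (53.3 CPM), with 2.89 CPM of Atf3. The highest neutrophil sum was in PBS 2 (30.6 CPM), with 3.58 CPM of Atf3. The part of T cell or neutrophil content in the Atf3 values was not tested.

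**Figure D2:**
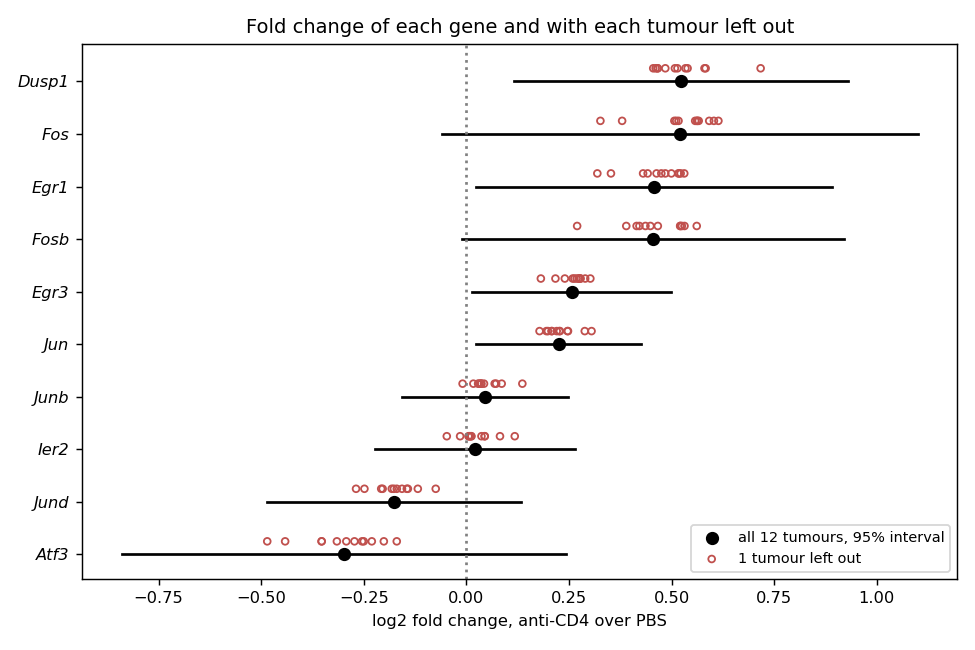
Log2 fold change of each gene, anti-CD4 over PBS, with its 95% interval from the edgeR fit (black) and the value with each tumour left out in turn (red circles). Dusp1 and Fos stand at 0.52 and Atf3 at -0.30, and the circles of Junb and Ier2 fall on both sides of 0.

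Per length, the 10 genes spanned a wide range of levels. Divided by the length of the longest coding transcript in GENCODE M21, Jund averaged 79.4 ± 15.2 CPM per kb in anti-CD4 tumours and 89.7 ± 17.8 CPM per kb in PBS tumours (SD, n = 6 each), a mean level above 96.6% of 16109 tested genes with a coding transcript. Junb followed at 61.4 ± 7.34 and 59.6 ± 8.62 CPM per kb in anti-CD4 and PBS tumours, and Jun at 55.6 ± 6.93 and 47.6 ± 6.24 CPM per kb. Egr1, Ier2 and Fos formed a middle group at mean levels of 30.2, 28.6 and 24.9 CPM per kb over both groups. Egr1 was above Ier2 in 8 of 12 tumours and Ier2 above Fos in 9 of 12, so these neighbours changed places between tumours, while Egr1 was above Fos in 12 of 12. Dusp1 stood at 15.3, Fosb at 6.94, Egr3 at 2.35 and Atf3 at 1.40 CPM per kb, the last above 27% of the tested genes. The Jun genes were thus each at a higher level per length than Fos and Fosb in both groups.

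Within a group, most of these genes varied more between tumours than genes of like level did. The within-group SD of log2 CPM was 0.51 for Fos, 0.39 for Fosb, 0.38 for Egr1, 0.34 for Dusp1 and 0.27 for Jund. Each of these 5 exceeded more than 95% of the tested genes within 0.5 log2 units of its mean level, whose median SD was 0.10 to 0.13. Jun, Junb and Ier2, at 0.18, 0.18 and 0.22, exceeded 88%, 87% and 88.2% of such genes. Atf3, at 0.47, exceeded 77.7%, and Egr3, at 0.20, exceeded 51.1%. Fos ran over a range of 5.15-fold across the 12 tumours, Egr1 over 3.42-fold and Junb over 1.46-fold. In Atf3 the spread was larger in anti-CD4 tumours (coefficient of variation 44.3%) than in PBS tumours (16.1%), a difference that was not tested.

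Single tumours stood at the ends of many of these ranges. Anti-CD4 6 had the highest level of 6 of the 10 genes, namely Fos, Fosb, Egr1, Egr3, Jun and Dusp1, and the lowest level of Jund. PBS 2 had the lowest level of 5 genes: Fos, Fosb, Egr1, Egr3 and Junb. PBS 1 was highest in Junb and Ier2. Anti-CD4 6 had the deepest library (62.06 M counts) and PBS 2 the highest mitochondrial share (2.68%), whose part in these levels was not tested. Without anti-CD4 6 and PBS 2 together, an alternative chosen after seeing the data, 0 of the 10 genes passed and 0 had an unadjusted p under 0.05 in edgeR; their median log2 fold change was 0.14 and 6 of 10 were positive. With log2 library size added to the fit the median was 0.16, with 0 of the 10 called, against 5 of all genes, and 1 with an unadjusted p under 0.05. With counts thinned to the lowest library total the median was 0.25.

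**Figure D3:**
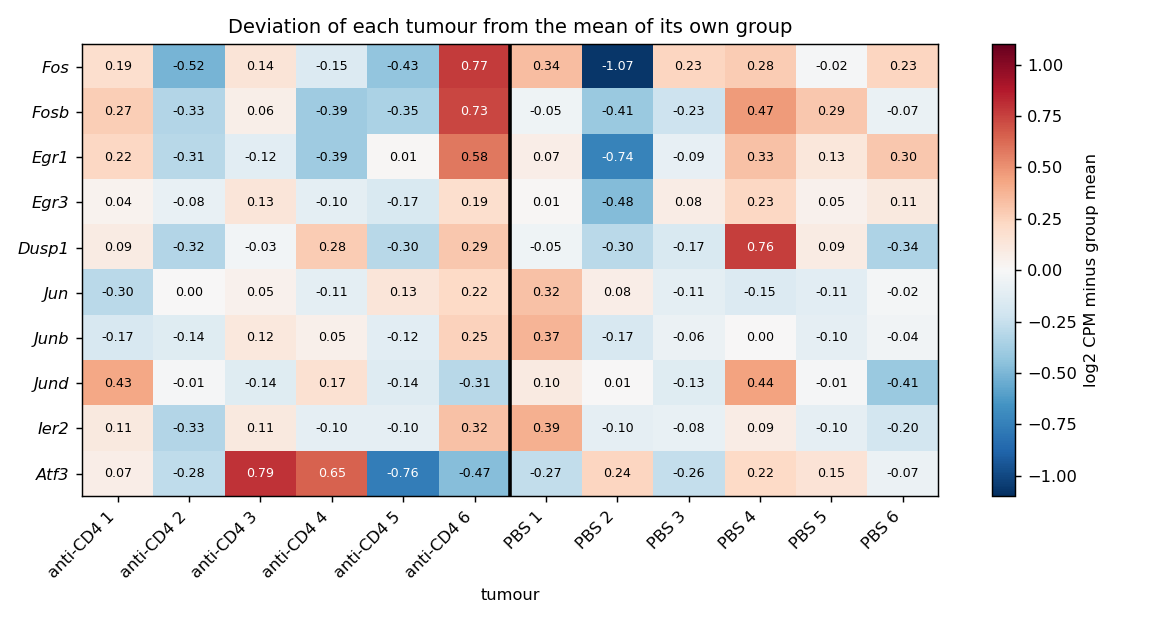
Log2 CPM of each gene in each tumour minus the mean of that tumour's own group, with anti-CD4 tumours left of PBS tumours. The upper rows (Fos, Fosb, Egr1, Egr3) share a high anti-CD4 6, at 0.77, 0.73, 0.58 and 0.19, and a low PBS 2, at -1.07, -0.41, -0.74 and -0.48, while Atf3 is high in anti-CD4 3 and 4 and low in anti-CD4 5 and 6.

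Across the 12 tumours some pairs of these genes moved together and others did not. Of 45 pairs, 9 had a Pearson correlation of log2 CPM with an adjusted p under 0.05 (permutation test, 100000 resamples, Benjamini-Hochberg over the 45 pairs), and all 9 were positive. They include all 6 pairs among Fos, Fosb, Egr1 and Egr3. After each group's mean was subtracted, 3 of the 45 pairs passed. The share of pairs that pass among other genes of like level was not measured, so the 9 of 45 have no background here. The genes share library, depth and scaling, so these values describe the tumours and not a shared control.

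Fos and Egr3 were the closest pair (Pearson r = 0.93, permutation p = 0.00013, adjusted p = 0.00585; Spearman rho = 0.741, permutation p = 0.00749, adjusted p = 0.0481). Without anti-CD4 6 and PBS 2, the tumours farthest from the median of Fos, r was 0.708 (permutation p = 0.0227). Within anti-CD4 tumours r was 0.897 and within PBS tumours 0.944. Fosb and Egr1 gave r = 0.874 (permutation p = 0.00026, adjusted p = 0.00585) and rho = 0.832 (permutation p = 0.0015, adjusted p = 0.0337), with r = 0.906 within anti-CD4 tumours, 0.762 within PBS tumours and 0.728 (permutation p = 0.0108) without anti-CD4 1 and 6. Fosb and Egr3 gave r = 0.807 (permutation p = 0.00222, adjusted p = 0.0152) and rho = 0.825 (permutation p = 0.00148, adjusted p = 0.0337), with r = 0.894 and 0.721 within anti-CD4 and PBS tumours and 0.781 (permutation p = 0.0032) without anti-CD4 1 and 6. These 3 pairs also passed after each group's mean was subtracted, at r = 0.909, 0.827 and 0.729 (permutation, adjusted p = 0.0316 each).

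The other pairs among these 4 genes were weaker without anti-CD4 6 and PBS 2. Fos with Egr1 gave r = 0.894 (permutation p = 0.00119, adjusted p = 0.0134) and rho = 0.587 (permutation p = 0.0481, adjusted p = 0.197), with r = 0.461 (permutation p = 0.179) without those tumours and r = 0.858 (permutation, adjusted p = 0.0526) with group means subtracted. Fos with Fosb gave r = 0.809 (permutation p = 0.00237, adjusted p = 0.0152) and rho = 0.615 (permutation p = 0.0372, adjusted p = 0.168), with r = 0.537 (permutation p = 0.11) without them and r = 0.746 (permutation, adjusted p = 0.0526) with group means subtracted. Egr1 with Egr3 gave r = 0.883 (permutation p = 0.00057, adjusted p = 0.00855) and also passed by rank (rho = 0.776, permutation p = 0.00437, adjusted p = 0.0481). Without those tumours its r was 0.561 (permutation p = 0.0921), and with group means subtracted 0.828 (permutation, adjusted p = 0.0526). Within anti-CD4 and PBS tumours r was 0.804 and 0.902 for Fos with Egr1, 0.948 and 0.542 for Fos with Fosb, and 0.651 and 0.955 for Egr1 with Egr3.

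Dusp1 moved with Fosb (r = 0.773, permutation p = 0.00235, adjusted p = 0.0152; rho = 0.783, permutation p = 0.00409, adjusted p = 0.0481; r = 0.713, permutation p = 0.0205, without anti-CD4 1 and 6) and with Egr3 (r = 0.712, permutation p = 0.00288, adjusted p = 0.0162; rho = 0.755, permutation p = 0.00655, adjusted p = 0.0481; r = 0.641, permutation p = 0.0458, without anti-CD4 6 and PBS 2). Within anti-CD4 and PBS tumours r was 0.563 and 0.862 for Dusp1 with Fosb and 0.536 and 0.535 for Dusp1 with Egr3. After group means were subtracted neither pair passed, at r = 0.677 (permutation, adjusted p = 0.0745) and r = 0.534 (permutation, adjusted p = 0.362). Junb moved with Ier2 (r = 0.784, permutation p = 0.00333, adjusted p = 0.0166; rho = 0.559, permutation p = 0.0635, adjusted p = 0.22), a relation that rested on anti-CD4 6 and PBS 1, since r was 0.349 (permutation p = 0.325) without them; within anti-CD4 and PBS tumours r was 0.659 and 0.911.

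Jun, Jund and Atf3 were in none of the 9 pairs. Jun and Jund had r = -0.578 (permutation p = 0.0508, adjusted p = 0.152; rho = -0.545, permutation p = 0.0708), with r = -0.99 within anti-CD4 tumours, r = -0.03 within PBS tumours and r = -0.351 without anti-CD4 5 and 6, the 2 tumours farthest in Jun. Fos with its partner Jun had r = 0.304 (permutation p = 0.359, adjusted p = 0.557; rho = 0.308, permutation p = 0.332), and r = 0.0096 without anti-CD4 6 and PBS 2. Fos and Ier2 passed by rank only (rho = 0.741, permutation p = 0.00748, adjusted p = 0.0481; r = 0.58, permutation p = 0.0467, adjusted p = 0.15), with r = 0.957 within anti-CD4 tumours, 0.346 within PBS tumours and 0.601 (permutation p = 0.065) without anti-CD4 6 and PBS 2.

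**Figure D4:**
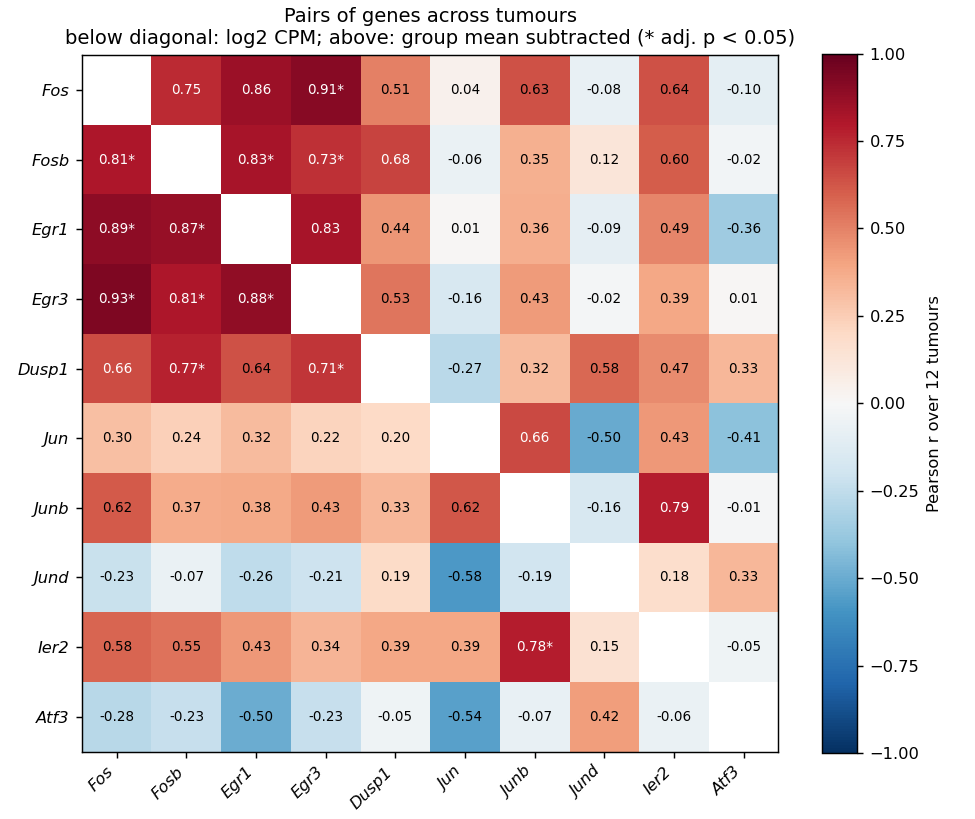
Pearson correlation of each pair of genes over the 12 tumours, from log2 CPM (below the diagonal) and after each group's mean was subtracted (above it); an asterisk marks an adjusted p under 0.05 over the 45 pairs. The block of Fos, Fosb, Egr1 and Egr3 runs from 0.81 to 0.93 below the diagonal, and the columns of Jund and Atf3 hold no asterisk.

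By the rule for likeness, 8 genes among 11441 candidates (mean log2 CPM at least 2) had group-centred levels closest to the mean scaled profile of the 10 genes over the 12 tumours. They were chosen for their correlation, so no p is given. Zfp36, which encodes tristetraprolin, an immediate early protein that promotes decay of AU-rich mRNAs, ranked behind Hdac7 and Rarg (r = 0.794, rho = 0.846, and r = 0.759 without anti-CD4 6 and PBS 2). Its level was 54.4 CPM in anti-CD4 6 and 35.9 CPM in PBS 2. Hdac7, a class II histone deacetylase, came first (r = 0.826, rho = 0.797) and Rarg, a retinoic acid receptor, second (r = 0.818, rho = 0.769). Id1, an inhibitor of helix-loop-helix factors (r = 0.763), Tfeb, a lysosomal transcription factor (r = 0.754), B4galt3, a galactosyltransferase (r = 0.781), Pacsin3, a membrane-bending protein (r = 0.78), and Copz1, a coatomer subunit (r = 0.754), made up the rest. Of 33 other immediate early genes among the candidates, 7 had r above 0.5, against 3.24% of all candidates, and their median r was 0.345, against -0.024.

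The wider class of immediate early genes had log2 fold changes in both directions. Of 34 tested, 20 were positive and 14 negative (58.8% positive, against 49.9% of all genes), with a median of 0.04. An unadjusted p under 0.05 in edgeR was found for 10 (29.4%, against 28% of all genes). After adjustment 0 passed, against a background of 5.28%, which in a list of this length is not read as a difference from all genes. Klf6, a zinc finger factor, had 192 to 219 CPM in anti-CD4 tumours and 164 to 191 CPM in PBS tumours, with no overlap (log2 fold change 0.18, SE 0.05, edgeR adjusted p = 0.0508). Egr2, the other EGR factor tested, had 3.53 to 7.41 CPM in anti-CD4 tumours and 3.18 to 4.56 CPM in PBS tumours (0.48, SE 0.17, edgeR adjusted p = 0.0949). Nr4a3, an orphan nuclear receptor induced by antigen receptor signals, lay the other way, at 4.91 to 13.2 CPM in anti-CD4 tumours and 10.8 to 16.4 CPM in PBS tumours (-0.83, SE 0.23, edgeR adjusted p = 0.0545). Anti-CD4 4 was the only tumour of its group within the PBS range of Nr4a3. Gadd45b, a stress protein that acts on MAP3 kinases, had 5.10 to 7.28 CPM in anti-CD4 tumours and 6.91 to 9.62 CPM in PBS tumours (-0.42, SE 0.12, edgeR adjusted p = 0.0540).

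Of 9 dual specificity phosphatases other than Dusp1, 1 fell and 0 rose, against 2.33% of all genes called lower, and their median log2 fold change was 0.07. Dusp2, the phosphatase of activated lymphocytes, fell to 0.645 to 2.13 CPM in anti-CD4 tumours, against 2.40 to 4.37 CPM in PBS tumours, with no overlap (log2 fold change -1.36, SE 0.26, edgeR adjusted p = 0.0208). The call held in 10 of the 12 fits that leave out a tumour and in 20 of all 26 alternatives. It was lost with library size (edgeR adjusted p = 0.214) or the fibroblast level (edgeR adjusted p = 0.321) in the fit, where only 5 and 2 of all genes were called. Dusp2 moved with the T cell markers, 7 of 7 of which had negative log2 fold changes and 2 of which fell; they summed to 6.83 to 31.2 CPM in anti-CD4 tumours and to 25.5 to 53.3 CPM in PBS tumours, with none at 0, and their part in the Dusp2 result was not tested. Dusp6, Dusp7 and Dusp5, the next by p, stood at 0.18, 0.16 and -0.23 (edgeR adjusted p = 0.157, 0.157 and 0.193).

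Among genes of the MAP kinase cascade, which acts upstream of these genes, Rps6ka3, which encodes the MAP kinase-activated kinase RSK2, rose (log2 fold change 0.20, SE 0.05, edgeR adjusted p = 0.0375). It had 168 to 193 CPM in anti-CD4 tumours and 147 to 175 CPM in PBS tumours, which overlap. Of 8 genes of serum response factor, its partners and the EGR corepressors, 1 rose (background 2.95% higher), Mrtfb, an actin-regulated coactivator (0.15, SE 0.04, edgeR adjusted p = 0.0464), while Srf itself stood at 0.06 (adjusted p = 0.461) and Nab1, a corepressor of EGR proteins, at 0.19 (adjusted p = 0.058). The call of Rps6ka3 held in 3 and that of Mrtfb in 2 of the 12 fits that leave out a tumour, and both were lost with upper quartile scaling (edgeR adjusted p = 0.059 for Rps6ka3 and 0.154 for Mrtfb).

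Of 11 tested AP-1 target genes, 1 rose (background 2.95% higher), Cd44, the hyaluronan receptor, at 366 to 439 CPM in anti-CD4 tumours and 308 to 362 CPM in PBS tumours (log2 fold change 0.22, SE 0.06, edgeR adjusted p = 0.0429), and the list median was 0.22. That call held in 3 of 12 fits that leave out a tumour and was lost with upper quartile scaling (edgeR adjusted p = 0.0674). Of 15 AP-1 partners, 0 passed (background 5.28% in either direction), and 7 had an unadjusted p under 0.05 in edgeR (46.7%, against 28% of all genes). Atf2 stood at a log2 fold change of 0.18, Batf at -0.66 and Mafg at -0.17 (edgeR adjusted p = 0.0635, 0.11 and 0.129). Batf3 had 0.289 to 1.21 CPM in anti-CD4 tumours and 0.782 to 1.69 CPM in PBS tumours (edgeR adjusted p = 0.0715). Of 8 factors of AU-rich mRNA decay, 14 heat shock genes and 11 genes of the integrated stress response, 0 passed (background 5.28%), with medians of 0.04, 0.12 and 0.07. Positive log2 fold changes were found for 7 of 8, 13 of 14 and 7 of 11, against 49.9% of all genes. Unadjusted p in edgeR was under 0.05 for 2, 2 and 1 of them, against 28% of all genes. The heat shock genes, which encode chaperones, summed to 2845 to 3671 CPM in anti-CD4 tumours and to 2501 to 3444 CPM in PBS tumours. Anti-CD4 6 had the highest heat shock sum and PBS 4 the lowest, and their part in the levels described here was not tested.

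**Figure D5:**
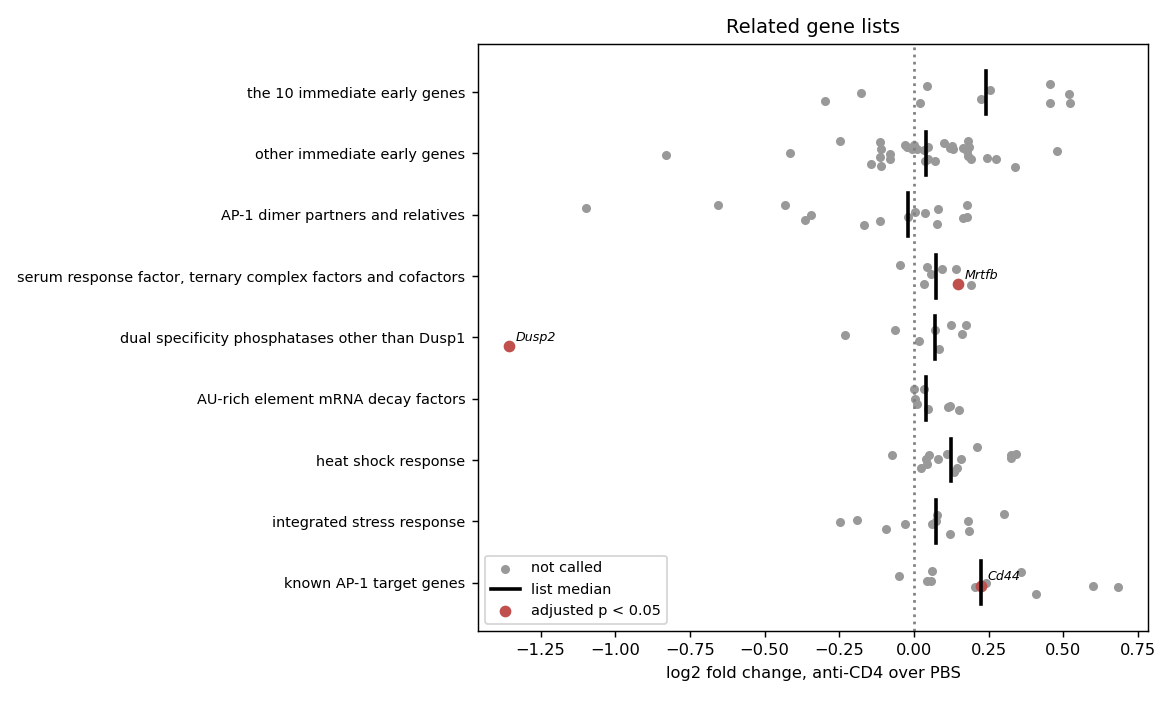
Log2 fold change, anti-CD4 over PBS, of each tested gene in 9 lists, with the list median as a black line and genes with an edgeR adjusted p under 0.05 in red. The 10 immediate early genes have a median of 0.24 and none in red, and Dusp2, at -1.36, is the red point farthest from 0.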

How the data were processed

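The values are estimated counts by gene symbol for 12 tumours, as the authors deposited them. The submitters' processing notes name bcl2fastq 2.20.0.422, kallisto (version not stated) and build GRCm38.p6; neither annotation nor strand setting is given. Estimated counts were rounded, filtered with filterByExpr (17940 genes), scaled by TMM and tested with the robust quasi-likelihood F test of edgeR 4.0.16 (R 4.3.3), without covariates, adjusted by Benjamini-Hochberg over all genes. The SE is the log2 fold change over the square root of F. Alternatives used DESeq2 1.42.0 and limma 3.58.1; log2 CPM used a prior count of 2. Tumours of a group differed by more than sampling noise (chi-square per degree of freedom 8.01 to 61.1, 30 pairs). Labels do not link tumours to mice, so p-values measure the spread between tumours. Annotation is GENCODE M21. On simulated data (17772 genes) 52.2%, 79.1% and 92.4% of changes of 1.5-fold, 2-fold and 4-fold were recovered, with 6.29% of calls false. The changed genes were drawn at random from all tested genes. Fos, Fosb, Egr1, Dusp1 and Jund varied more within groups than most genes of like level, and recovery for such genes was not measured. The 10 genes and all lists were chosen with earlier results of these data known. Named genes are the 10, each list's called genes and up to 4 by smallest p, and the 8 most alike; Srf was added after its value was seen. Some genes of the MAP kinase list are not reported here.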

Additional observations from a re-analysis of the deposited data

Results flagged for a closer look

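In each group of 6 tumours, the gap between the highest or lowest tumour and its nearest neighbour was set against the group's whole range for each of the 10 genes, with Dixon's 95% critical value as the limit. Chance passes about 1 in 20 groups, and 4 of the 20 groups tested passed. Fos in PBS 2 was low, at 19.5 CPM with the next tumour at 40.6 CPM, and so was Egr3 in PBS 2, at 5.98 CPM with the next at 8.44 CPM. Junb in PBS 1 was high, at 138 CPM with the next at 107 CPM. Dusp1 in PBS 4 was high, at 41.0 CPM with the next at 25.8 CPM. All 4 lie in the PBS group, and the 10 genes are not independent of each other, so flags in the same tumour are not separate.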

How the results depend on the processing

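Of the 10 genes, 0 passed in edgeR with all 12 tumours, and 0 passed with RLE or upper quartile scaling, no filter, at least 1 CPM in 6 tumours, library sizes without mitochondrial, haemoglobin and receptor segment genes, thinned counts, or the library total, muscle or fibroblast level as a covariate (the last 2 chosen after seeing the data). DESeq2 called 1 (Dusp1), limma voom 3 and edgeR without anti-CD4 3 and 4 called 1 (Atf3, -0.75). Leaving out 1 tumour gave 0 to 1, with Jun called without PBS 1 and Dusp1 without PBS 4. Over all genes, 529 were higher and 418 lower. The counts were 179 higher and 325 lower with upper quartile scaling, 1345 and 1180 with DESeq2, 2848 and 3200 with limma voom, 272 and 251 with no filter, 0 and 5 with the library total as a covariate, 1118 and 984 with the muscle level, 0 and 2 with the fibroblast level, 378 and 705 without anti-CD4 3 and 4, and 4 and 19 without anti-CD4 6 and PBS 2. Leaving out 1 tumour gave 35 to 1160 higher and 31 to 1480 lower. Total calls were 2196 without anti-CD4 1, 83 without anti-CD4 2, 66 without anti-CD4 5, 90 without anti-CD4 6, 2640 without PBS 1, 239 without PBS 2, 161 without PBS 3, 252 without PBS 5 and 156 without PBS 6. With the replicate block 0 of the 10 genes passed, and 19 genes were higher and 14 lower. The shared numbers do not pair the tumours: correlations of same-numbered tumours ran from -0.409 to 0.229, and 0 of 12 tumours correlated best with their own number.

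Directions changed for 4 genes, none of which passed. With library size in the fit the log2 fold change was -0.097 for Junb, -0.058 for Ier2, 0.022 for Jund and 0.00044 for Atf3. With the fibroblast level it was -0.042 for Junb and -0.14 for Ier2. Without anti-CD4 6 it was -0.0094 for Junb and -0.048 for Ier2, without anti-CD4 6 and PBS 2 it was -0.054 and -0.080, and for Ier2 it was -0.015 without PBS 6 and -0.020 with upper quartile scaling. Leaving out 1 tumour gave -0.0094 to 0.136 for Junb and -0.048 to 0.118 for Ier2. The cause was not tested. Fos, Fosb, Jun, Egr1, Egr3 and Dusp1 kept a positive value in all 26 alternatives. A prior count of 0.5 changed no exact permutation result. Of the 45 pairs, 9 passed by Pearson's r, 7 by Spearman's rho and 3 by r with group means subtracted. Thinning all libraries to the lowest total left Atf3, the gene with the fewest counts, at -0.31 (edgeR adjusted p = 0.45).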
